A study of Mus musculus with 114 samples.

Results

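The difference between diets in the adipocyte transcriptome was compared between 34 and 20 weeks of feeding. Of the 38 mice of the series, 26 entered this comparison, all those fed for 20 or 34 weeks, and for each gene the value HFD minus CD at 34 weeks less the value HFD minus CD at 20 weeks was tested, which is called the interaction here. The mice were male C57BL/6J, and their adipocytes had been taken as the floating cells after collagenase digestion of perigonadal white fat. High fat diet (HFD) or chow diet (CD) was started at 6 weeks of age and given for 20 weeks (6 CD and 6 HFD mice) or 34 weeks (8 CD and 6 HFD mice). The study's methods name either of a pair of purified control formulas for CD, and which mouse received which is not given in the sources used here. Each mouse is 1 replicate, its 3 technical replicates having been merged by the authors.

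White adipocytes store triglyceride in 1 large droplet, and on a high fat diet they enlarge while the tissue is remodelled. Enlarging fat cells are held in a mesh of collagens and glycoproteins, lipid-laden macrophages gather around them, and their own synthesis of fatty acids and cholesterol is adjusted to the supply of lipid. A diet difference that is large at 20 weeks and small at 34 weeks can come about because the HFD mice moved, because the CD mice moved, or both, and the interaction alone does not say which, so the change from 20 to 34 weeks is given within each diet as well. The 5 comparisons share mice and are not independent of each other. Time is also confounded with harvest, since the labels name no batch that holds both times, so a change within 1 diet cannot be told apart from a difference between harvests, whereas a shift common to both diets leaves the interaction as it is.

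The 26 libraries held 9275711 to 14961360 reads on genes, and every library of 34 weeks (at most 12433584) was shallower than every library of 20 weeks (at least 13091365). All 13 adipocyte markers were detected, and their summed level was 33072 to 87555 CPM (reads scaled to a library total of 1000000) over these mice, whereas none of the 12 T cell markers or of the 12 epididymis and testis markers passed the limit on low values. Macrophage markers moved with diet and with time in CD. The summed level of 19 such markers, none of which was at 0 in all mice of a group, was 1091 to 4700.4 CPM in CD mice at 20 weeks, 6624 to 13852 in HFD mice at 20 weeks, 1504 to 17203 in CD mice at 34 weeks and 7678 to 22966 in HFD mice at 34 weeks. The CD mice at 34 weeks were the most variable group, with a mean SD of 0.41 on the log2 scale over genes against 0.28, 0.20 and 0.33 in CD mice at 20 weeks, HFD mice at 20 weeks and HFD mice at 34 weeks. In such bulk RNA, more cells of a type and more RNA per cell cannot be told apart.

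Of 10433 genes tested with limma on log2(CPM + 1), 713 were called at an adjusted p (Benjamini-Hochberg) under 0.05, which is 6.83% of the genes tested. The diet difference was higher at 34 than at 20 weeks in 310 genes (2.97%) and lower in 403 (3.86%). The split depends on the scaling, since TMM-scaled CPM gave 439 higher and 359 lower and median-of-ratios scaling gave 475 higher and 358 lower. By this test, diet differences mostly shrank. Of the 713 genes, 494 had a diet difference that was called at 20 weeks only, 66 were called at both times in the same direction with a smaller difference at 34 weeks, 57 were called at both times in opposite directions, 93 were called at 34 weeks only and 2 at neither. A single gene, Arsb, a lysosomal sulfatase, was called at both times in 1 direction with the larger difference at 34 weeks (0.26 and 0.76 on the log2 scale, interaction 0.50, adjusted p = 0.0345), and it is named because of that count. In absolute terms the diet difference was smaller at 34 weeks in 593 of the 713 genes, with a median of 0.75 at 20 weeks and 0.24 at 34 weeks, values that the selection of these genes has favoured. Over all genes tested, the median absolute diet difference was 0.37 at 20 weeks and 0.27 at 34 weeks.

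**Figure D1:**
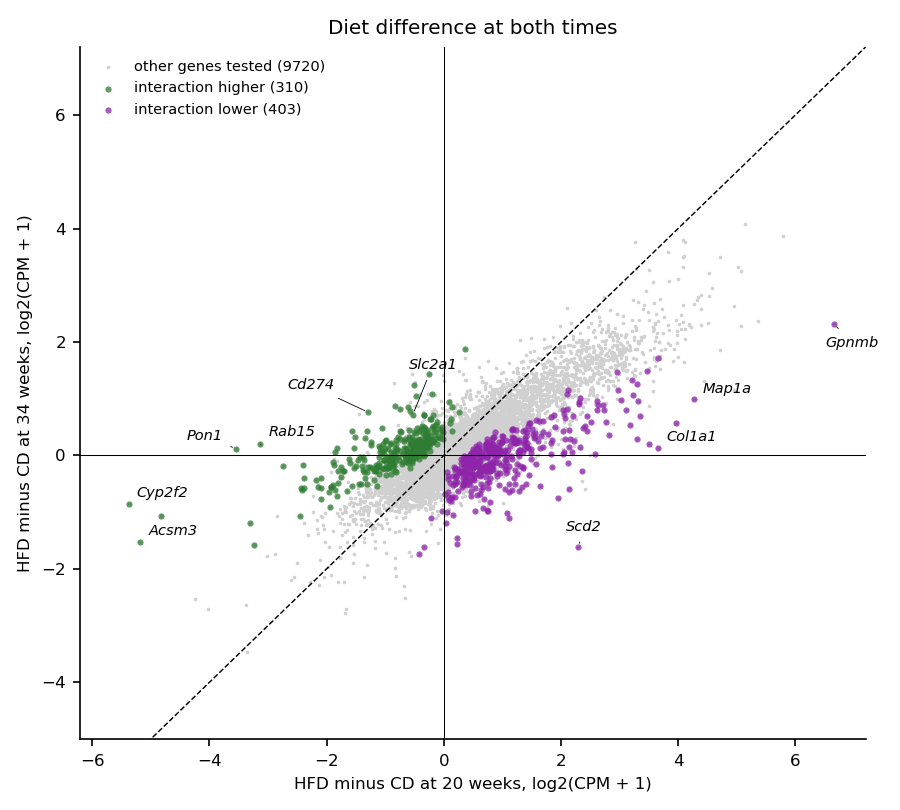
Difference between diets (HFD minus CD, log2(CPM + 1)) at 20 weeks (x axis) and at 34 weeks (y axis) for each of the 10433 genes tested, with the 310 genes whose difference was higher at 34 weeks in green and the 403 whose difference was lower in purple. The dashed line marks equal differences, and most coloured points lie nearer to 0 on the y axis than on the x axis.

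By call, most of these genes changed with time in CD, where a difference of harvest or of control formula cannot be told apart from time. Of the 713 genes, 542 were called for a change from 20 to 34 weeks in CD only (326 higher and 216 lower at 34 weeks), 29 in HFD only (13 higher and 16 lower), 140 in both diets and 2 in neither. Among the 140, 43 rose and 76 fell in both diets, 17 rose in CD and fell in HFD, and 4 fell in CD and rose in HFD. The change with time was larger in CD than in HFD in 668 of the 713 genes, with a median absolute change of 0.97 in CD and 0.23 in HFD. The same quantities over all genes tested were 0.41 and 0.25. Selection on the interaction has favoured large changes, and CD mice were more variable than HFD mice at each time. As background, 59.0% of the genes tested were called for a change in CD (4083 or 39.1% higher and 2068 or 19.8% lower) and 23.5% for a change in HFD (1442 or 13.8% higher and 1008 or 9.66% lower). The diet difference was called for 53.6% at 20 weeks (3832 or 36.7% higher and 1761 or 16.9% lower in HFD) and for 38.7% at 34 weeks (2647 or 25.4% and 1388 or 13.3%). With TMM scaling these splits became 2962 and 2852, 693 and 1416, 2883 and 2802, and 2086 and 2044, so the majority direction of the HFD changes depends on the scaling. The mice of the diets did not overlap at 20 weeks in 500 of the 713 genes and at 34 weeks in 25, against 37.7% and 2.47% of all genes tested. The times did not overlap in 436 of the 713 genes in CD and in 109 in HFD, against 19.8% and 12.0%. The selection of the 713 genes on the interaction favours such separation, so these counts are no independent evidence. TMM scaling lowered the median over all genes from 0.17 to 0.03 for the change in CD and from 0.14 to -0.02 for the diet difference at 20 weeks, and the corresponding shift of the interaction, from -0.09 to -0.03, was smaller.

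**Figure D2:**
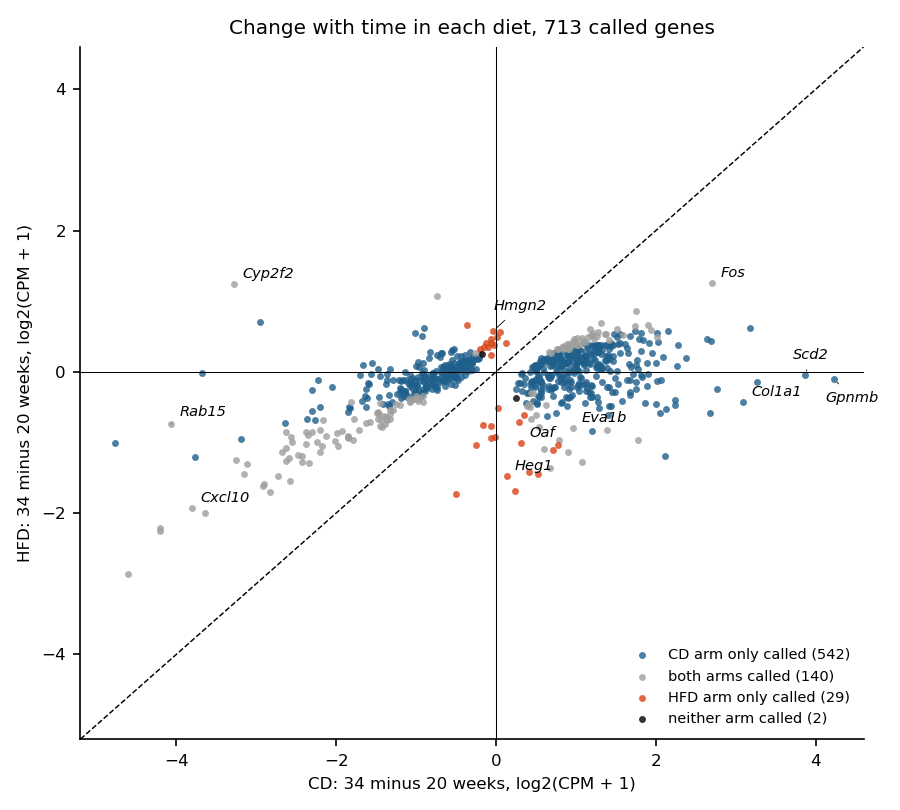
Change from 20 to 34 weeks (log2(CPM + 1)) in CD mice (x axis) and in HFD mice (y axis) for the 713 genes called for the interaction, coloured by the diet in which the change itself was called. The dashed line marks equal changes, and 668 of the genes changed more along the x axis than along the y axis.

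The mice fed for 8 weeks had no part in choosing these genes. Among the 403 genes whose diet difference was lower at 34 weeks, HFD exceeded CD at 8 weeks in 396 (98.3%), with a median of 0.74, against 61.1% and 0.11 over all genes tested. Among the 310 genes whose diet difference was higher at 34 weeks, HFD was not above CD at 8 weeks in 304, with a median of -0.64. So over each of these sets as a whole, the median diet difference at 8 weeks was close to that of 20 weeks (0.82 and -0.63). The CD level at 8 weeks was nearer to that of CD mice at 20 weeks than at 34 weeks in 346 of the 403 genes and in 269 of the 310, and in 79.3% of all genes tested.

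Some genes of the extracellular matrix had a lower diet difference at 34 weeks, and most members of the matrix lists were not called. Where a gene is given as higher or lower with its interaction and adjusted p only, its diet difference was higher or lower at 34 than at 20 weeks. Of 17 fibrillar and other collagens tested, 6 had a lower diet difference at 34 weeks and none a higher one, and the median interaction was -1.56 against -0.09 over all genes. At 20 weeks 15 of the 17 were higher in HFD (median 1.95), at 34 weeks 3 were higher and 1 lower (median 0.14), and over the same span 14 rose in CD (median 1.11) while none rose and 4 fell in HFD (median -0.43). Col1a1 (chr11:94936224-94953042, mm10), the main chain of fibrillar type I collagen, had a lowest, median and highest value of 5.52, 11.7 and 52.3 CPM in CD mice and 86.3, 201 and 301 CPM in HFD mice at 20 weeks. At 34 weeks it was 28.6, 139 and 555 CPM in CD and 101, 133 and 209.9 CPM in HFD. The diets did not overlap at 20 weeks, and at 34 weeks the CD mice spanned the whole HFD range. Its interaction was -3.52 ± 0.75 (SE, adjusted p = 0.00755), with a change of 3.09 in CD (adjusted p = 2.41e-05) and of -0.43 in HFD (adjusted p = 0.596).

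Type VI collagen, a beaded microfibril that surrounds fat cells, had 2 of its chains called. Col6a1 (chr10:76708792-76726044) was 35.4, 121 and 296 CPM in CD and 286, 540.0 and 676 CPM in HFD mice at 20 weeks, and 197, 475 and 539 CPM in CD and 189, 275 and 308 CPM in HFD mice at 34 weeks. The HFD median was above the CD median at 20 weeks and below it at 34 weeks, and the ranges of the diets overlapped at both times. Here both diets moved, CD up (1.77) and HFD down (-0.96, adjusted p = 0.0479), and the interaction was -2.74 ± 0.48 (SE, adjusted p = 0.00208). Col6a2 gave an interaction of -2.64 (adjusted p = 0.00321), with medians of 108, 548, 481 and 366 CPM in CD and HFD at 20 weeks and CD and HFD at 34 weeks. Its change in HFD was not called (-0.58, adjusted p = 0.237).

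Col5a3, a chain of type V collagen, turned over, with HFD above CD at 20 weeks (1.11, adjusted p = 0.00232) and below CD at 34 weeks (-1.10, adjusted p = 0.00348). Its values were 105, 298 and 558 CPM in CD and 455, 634 and 791 CPM in HFD mice at 20 weeks, then 467, 742 and 1137 CPM in CD and 224, 352 and 483 CPM in HFD mice at 34 weeks. Col14a1, a fibril-associated collagen, and Col5a1 were the remaining members called, with interactions of -2.36 (adjusted p = 0.0241) and -1.56 (adjusted p = 0.0255).

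Of 37 matrix glycoproteins tested, 6 had a lower and none a higher diet difference (median -0.96). The members called were the fibulin Fbln2 (-2.65, adjusted p = 0.0336), Pcolce2, which enhances procollagen cleavage (-2.64, adjusted p = 0.0237), the proteoglycan biglycan Bgn (-2.46, adjusted p = 0.0262), the microfibril protein Mfap5 (-2.03, adjusted p = 0.0167), the basement membrane nidogen Nid2 (-1.59, adjusted p = 0.0181) and the latent TGF-beta binding protein Ltbp2 (-0.92, adjusted p = 0.00865). In this list 13 members rose and 5 fell in CD, and none rose and 13 fell in HFD. Of 17 metalloproteinases and their inhibitors, the procollagen peptidase Adamts2 (-1.39, adjusted p = 0.021), the membrane-bound Mmp15 (-0.95, adjusted p = 0.0219) and Mmp23 (-1.86, adjusted p = 0.0219) were lower, and the gelatinase Mmp9 was higher (1.53, adjusted p = 0.0125). Mmp9 had been lower in HFD at 20 weeks, at 8.41, 9.24 and 17.9 CPM in CD and 1.83, 2.17 and 3.13 CPM in HFD, without overlap, and at 34 weeks the diets overlapped at 2.16, 5.33 and 10.7 CPM in CD and 2.36, 4.16 and 6.83 CPM in HFD. None of 16 TGF-beta ligands, receptors and targets and none of 15 integrins was called, with medians of -0.14 and -0.72.

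Serpinf1 (chr11:75410029-75422623), which encodes the secreted factor PEDF, was 9.79, 20.4 and 56.7 CPM in CD and 152, 236 and 268 CPM in HFD mice at 20 weeks. At 34 weeks it was 52.4, 178 and 264 CPM in CD and 132, 173 and 285 CPM in HFD. The diets were apart at 20 weeks and overlapped at 34 weeks, and the interaction was -3.01 ± 0.50 (SE, adjusted p = 0.00126). The fibroblast and progenitor markers had 3 of 14 members lower (Col1a1, Mfap5 and Clec3b) and a median of -1.20. At 20 weeks 12 of the 14 were higher in HFD (median 2.11), at 34 weeks 8 were (median 1.15), and none was lower at either time. The mean log2 level of these markers was 4.00 to 5.63 in CD and 6.26 to 7.23 in HFD mice at 20 weeks, with no overlap, and 4.81 to 6.74 in CD and 5.97 to 6.74 in HFD mice at 34 weeks. Their summed level, of which the actin-severing gene Gsn made up most, was 11823 to 15117 CPM in CD and 12531 to 17180 CPM in HFD mice at 20 weeks, and 8812 to 14801 and 9188 to 18095 CPM at 34 weeks. These markers, some of them collagens counted above, thus moved with the matrix genes, and their part in those results was not tested.

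Macrophage markers stood beside the matrix genes. None of 18 macrophage core markers was called for the interaction, although the median was -0.92. Of these, 13 rose and 2 fell in CD with time, 1 rose in HFD, 15 were higher in HFD at 20 weeks and 17 at 34 weeks. Mpeg1, Ctss and Tyrobp had the smallest p of this list, with interactions of -2.27 (adjusted p = 0.0873), -2.25 (adjusted p = 0.089) and -1.89 (adjusted p = 0.102). With the mean macrophage level of each mouse as a covariate, 1151 genes were called for the interaction instead of 713. The median of the collagens was then -1.36, that of the matrix glycoproteins -0.61 and that of the lipid-associated macrophage genes -0.64. That of the macrophage core markers was -0.01, near 0 by construction, since the covariate is the mean of these 18 markers. The same covariate reduced the genes called for the diet difference from 5593 to 1406 at 20 weeks and from 4035 to 389 at 34 weeks. On the log2 scale it was 4.47 to 7.42 in CD and 7.74 to 8.70 in HFD mice at 20 weeks, without overlap. At 34 weeks it was 5.65 to 9.06 in CD and 7.82 to 9.34 in HFD mice. The covariate thus cannot be separated from diet at 20 weeks, and the part of macrophages in the diet difference was not tested.

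Of 15 genes of lipid-associated macrophages, the cells that take up lipid from dying adipocytes, 3 had a lower diet difference (median -1.55). The gene with the largest decrease of the diet difference among those eligible for naming was Gpnmb (chr6:49036518-49058182), a membrane glycoprotein of these cells, at 8.17, 16.7 and 540.0 CPM in CD and 1550.3, 3247 and 4466 CPM in HFD mice at 20 weeks. At 34 weeks it was 71.1, 933 and 1784 CPM in CD and 1305, 4038 and 4487 CPM in HFD. A diet difference remained (6.66 at 20 weeks and 2.32 at 34 weeks), the interaction was -4.33 ± 1.16 (SE, adjusted p = 0.0257), and the call was lost without CD mouse 3 or CD mouse 4 of 20 weeks (adjusted p = 0.051 and 0.055), with edgeR and with a replicate block. Fabp5 (chr3:10012585-10016610), a lipid chaperone that adipocytes express as well, had a tighter pattern, with 47.3, 77.0 and 111 CPM in CD and 212, 343 and 392 CPM in HFD at 20 weeks against 356, 481 and 718 CPM in CD and 337, 409 and 703 CPM in HFD at 34 weeks. The CD mice of the 2 times did not overlap, the diets overlapped only at 34 weeks, and the interaction was -2.26 ± 0.29 (SE, adjusted p = 0.000173). The lysosomal protease Ctsd had an interaction of -1.02 (adjusted p = 0.0464) and was called in 17 of 39 other settings.

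Endothelial markers gave no such shift, with 0 of 12 called and medians of the diet difference of 1.09 at 20 weeks and 1.12 at 34 weeks. B cell (3), mesothelial (4) and erythroid (2) markers had none called, and of 10 mural markers the muscle filament gene Des was lower (-0.89, adjusted p = 0.0171). The plot of list medians sets these lists side by side.

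**Figure D3:**
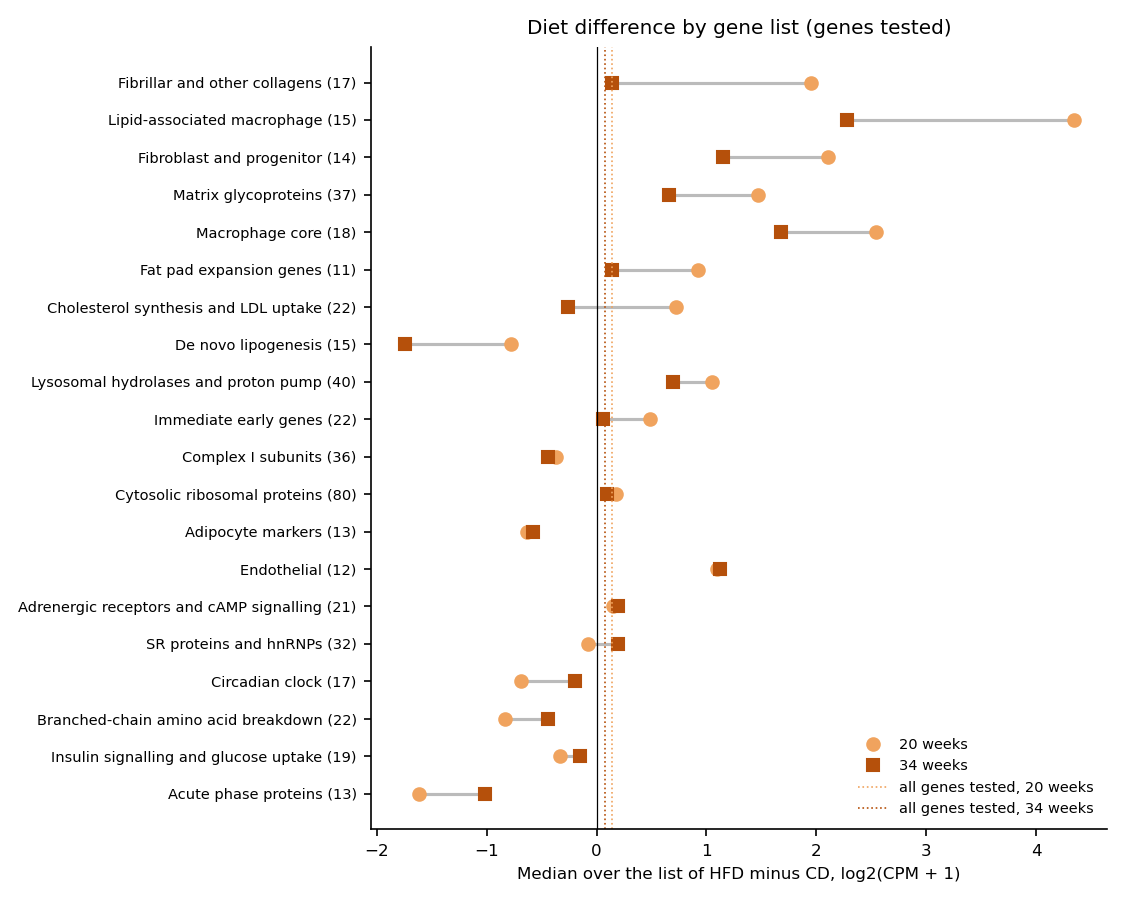
Median over each gene list of the difference between diets (HFD minus CD, log2(CPM + 1)) at 20 weeks (circles) and 34 weeks (squares), with the number of genes tested in brackets and dotted lines at the medians of all genes tested. The collagens went from 1.95 to 0.14 and cholesterol synthesis from 0.72 to -0.26, while endothelial markers and complex I subunits hardly moved.

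Cholesterol synthesis was the metabolic list with the most members called. Of 22 genes of this pathway and of LDL uptake, 6 had a lower diet difference at 34 weeks and none a higher one, and the median was -0.76. They were the mevalonate enzymes Mvk (-0.83, adjusted p = 0.0418) and Mvd (-1.09, adjusted p = 0.0255), the farnesyl diphosphate synthase Fdps, the lanosterol synthase Lss (-1.34, adjusted p = 0.0232), Dhcr7, which forms cholesterol in the last step of 1 branch, and Insig1, the sterol-responsive brake on the pathway (-1.28, adjusted p = 0.0318). In CD 15 of the 22 rose with time and none fell, and in HFD 3 rose and none fell. Without CD mouse 3 or 4 or HFD mouse 3 or 6 of 20 weeks, Insig1, Mvk and Mvd lost their calls. The median was -0.78 with the macrophage covariate. At 20 weeks 12 were higher and 1 lower in HFD, and at 34 weeks 4 were higher and 6 lower.

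Fdps (chr3:89093588-89101967) was 13.5, 17.1 and 25.9 CPM in CD and 19.9, 33.6 and 39.8 CPM in HFD mice at 20 weeks, and 31.4, 86.8 and 155 CPM in CD and 26.5, 47.2 and 55.3 CPM in HFD mice at 34 weeks. All CD mice of 34 weeks were above all CD mice of 20 weeks, and the diet difference was 0.79 and then -0.82, both called (interaction -1.62 ± 0.37, SE, adjusted p = 0.0108). Dhcr7 (chr7:143823167-143848410) was 2.8, 5.51 and 7.39 CPM in CD and 11.4, 19.0 and 22.7 CPM in HFD at 20 weeks, and 17.1, 23.4 and 29.0 CPM and 23.9, 27.7 and 34.2 CPM at 34 weeks. It rose in both diets, by 1.94 in CD and 0.59 in HFD, with an interaction of -1.35 ± 0.23 (SE, adjusted p = 0.0017).

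In de novo lipogenesis 2 of 15 genes were called, both of them desaturases that place the double bond of monounsaturated fatty acids. Scd2 (chr19:44293676-44306864) was 15.2, 59.9 and 167 CPM in CD and 79.9, 329.8 and 441 CPM in HFD mice at 20 weeks, and 144, 905 and 1736 CPM in CD and 169.8, 234 and 586 CPM in HFD mice at 34 weeks. HFD was the higher diet at 20 weeks (2.30) and the lower at 34 weeks (-1.62), both called, with overlapping ranges at each time. The whole change lay in CD (3.87 against -0.05 in HFD), the interaction was -3.92 ± 0.76 (SE, adjusted p = 0.00447), and CD mouse 5 of 34 weeks stood below the other CD mice at 144 CPM. The others, at 768 CPM or more, were above all HFD mice of that time. Scd1 was called more weakly (-1.33, adjusted p = 0.0487, called in 11 of 39 other settings), and the elongase Elovl6 was not called (-1.84, adjusted p = 0.096). In this list 6 of 15 members were lower and 1 higher in HFD at 20 weeks, and 13 were lower and none higher at 34 weeks (medians -0.78 and -1.75).

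Among the genes of lipid droplets and lipolysis, the glycerol channel Aqp7 (-1.08, adjusted p = 0.00603) and the droplet coat gene Plin3 (-0.53, adjusted p = 0.0147) were lower, and no other of the 16 was called. Of 11 adipocyte genes known to track growth of the fat pad, 3 were lower (median -0.78), and 6 rose in CD while none changed in HFD by call. Sfrp5 (chr19:42197971-42202252), a secreted inhibitor of WNT ligands, was 4.27, 20.7 and 60.9 CPM in CD and 212, 282 and 416 CPM in HFD mice at 20 weeks, and 44.5, 198 and 506 CPM and 148, 255 and 489 CPM at 34 weeks. The diets were apart at 20 weeks and overlapped almost wholly at 34 weeks (interaction -3.40 ± 0.80, SE, adjusted p = 0.0134). The natriuretic peptide clearance receptor Npr3 (-2.14, adjusted p = 0.0128) and the BMP family ligand Bmp3 (-1.41, adjusted p = 0.0224) followed, with CD changes of 2.01 and 1.42 and HFD changes of -0.13 and 0.01. Leptin (Lep) had an interaction of -2.33 that was not called (adjusted p = 0.0638), with medians of 380.3 and 2443 CPM in CD and HFD at 20 weeks and 1631 and 2600.2 CPM at 34 weeks.

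Other large decreases were those of Map1a, a microtubule-associated protein (chr2:121289590-121310832), with medians of 4.65 and 106 CPM in CD and HFD at 20 weeks and 46.2 and 77.2 CPM at 34 weeks (-3.27, adjusted p = 0.0097), and of Gpr50, an orphan receptor related to the melatonin receptors (-3.30, adjusted p = 0.0258). Gpr50 was at 0 to 1.47 CPM in CD mice at 20 weeks, where a single read was worth 0.07 to 0.0764 CPM, so the size of its difference depends on the pseudocount, and its call was lost without HFD mouse 6 of 20 weeks (adjusted p = 0.054). Cdc42ep4, an effector of CDC42 (-1.53, adjusted p = 0.000578), and the peptidase Pgpep1 (-1.17, adjusted p = 0.000637) were, after Fabp5, the genes with the smallest p among those that rose in CD only. Pgpep1 was 7.71, 10.6 and 14.6 CPM in CD and 20.9, 22.9 and 29.3 CPM in HFD at 20 weeks, and 23.2, 27.8 and 35.8 CPM and 23.1, 25.7 and 28.5 CPM at 34 weeks. The CD mice of 34 weeks overlapped the HFD mice of both times and did not overlap the CD mice of 20 weeks.

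**Figure D4:**
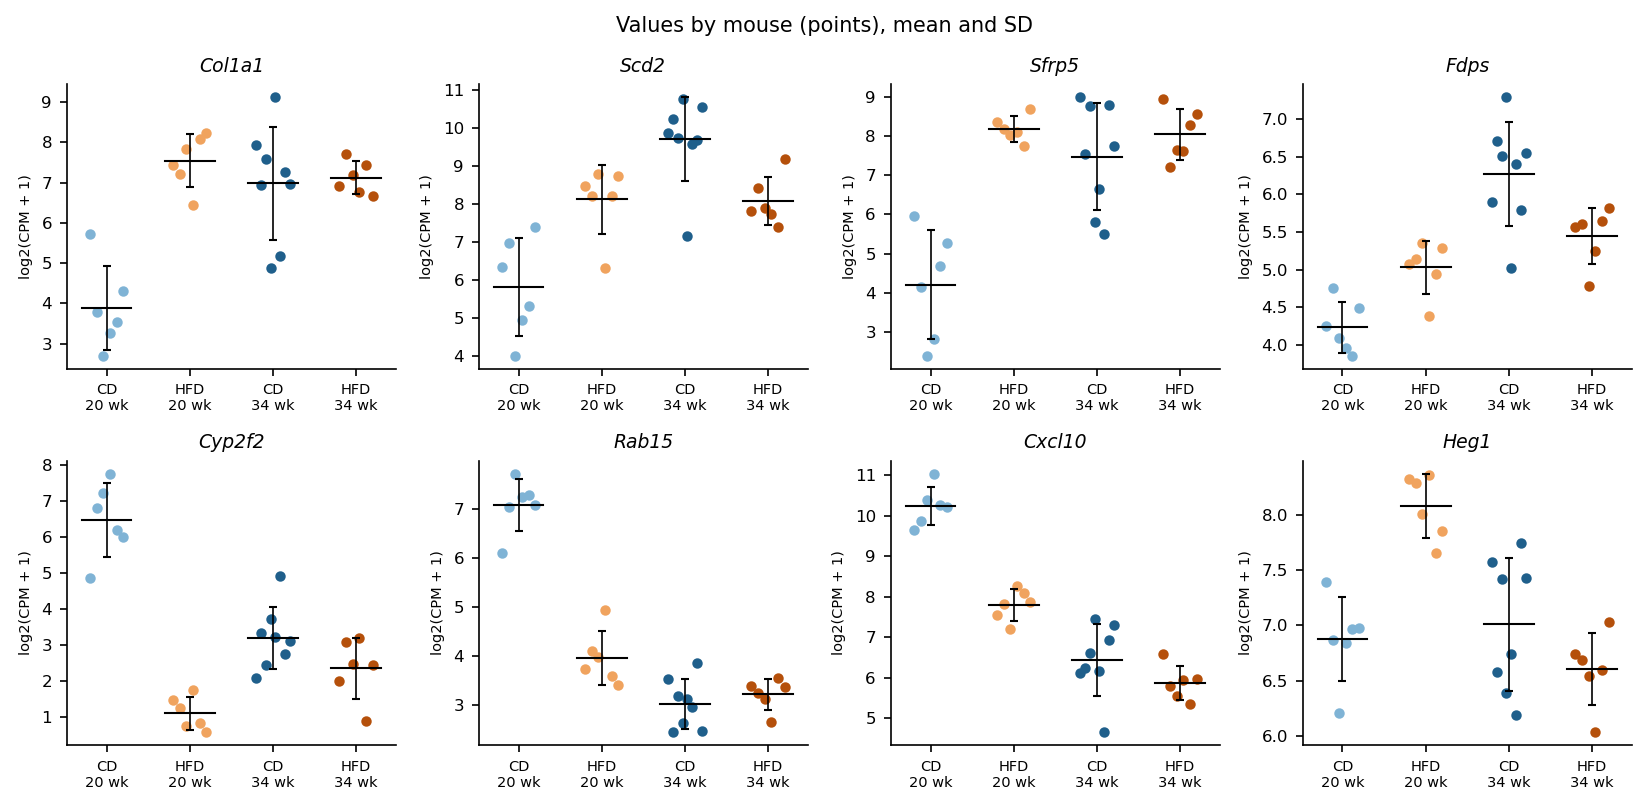
Values of 8 genes in each mouse (points, log2(CPM + 1)) of the 4 groups, with the group mean (bar) and SD (whiskers, n = 6, 6, 8 and 6). In Col1a1, Scd2, Sfrp5 and Fdps the CD mice are higher at 34 than at 20 weeks, in Cyp2f2, Rab15 and Cxcl10 they are lower, and in Heg1 the HFD mice are lower.

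The reverse pattern, genes lower in HFD at 20 weeks that the CD mice lost by 34 weeks, held the largest rises of the diet difference. Cyp2f2 (chr7:27119955-27133660), a cytochrome P450 known for the metabolism of xenobiotics, was 28.1, 91.6 and 216 CPM in CD and 0.484, 1.06 and 2.34 CPM in HFD mice at 20 weeks. At 34 weeks it was 3.21, 7.93 and 29.2 CPM in CD and 0.822, 4.48 and 8.18 CPM in HFD. It fell in CD (-3.28, adjusted p = 1.17e-06) and rose in HFD (1.25, adjusted p = 0.0482), and the interaction was 4.53 ± 0.62 (SE, adjusted p = 0.000225). The CD mice of 20 weeks did not overlap the HFD mice of that time, and at 34 weeks the diets overlapped.

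Rab15 (chr12:76797960-76822759), a small GTPase of endosome recycling, had the smallest p of the genes named here. It was 67.7, 142 and 209.6 CPM in CD and 9.53, 13.5 and 29.6 CPM in HFD mice at 20 weeks, and 4.42, 7.19 and 13.5 CPM in CD and 5.21, 8.89 and 10.7 CPM in HFD mice at 34 weeks. The CD mice of 20 weeks stood above all others, and the interaction was 3.33 ± 0.37 (SE, adjusted p = 2.61e-05). The acyl-CoA synthetase Acsm3 (3.66, adjusted p = 0.00448), the lactonase paraoxonase Pon1 (3.66, adjusted p = 0.00208), the lubricating proteoglycan Prg4 (2.55, adjusted p = 0.025) and Itih4, an inhibitor heavy chain of the acute phase (2.11, adjusted p = 0.0129), changed in CD by -3.67, -2.95, -3.76 and -2.23 on the log2 scale. None of these 4 was called in HFD. Of them, Acsm3 and Itih4 remained lower in HFD at 34 weeks (-1.52 and -1.19). Itih4 was then at 0.247 to 1.32 CPM in HFD, a level at which the log2(CPM + 1) scale understates changes. The interaction call of Prg4 was lost with edgeR, with a replicate block and without HFD mouse 6 of 20 weeks, and that of Itih4 with edgeR. Tbx3, a T-box transcription factor, was the gene with the smallest p among those that fell in CD only (1.71, adjusted p = 0.000636), and CD mice of 20 weeks, at 26 to 54.6 CPM, lay above every mouse of the other 3 groups.

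At 8 weeks the diets already differed in these genes in the direction of 20 weeks. CD and HFD medians at 8 weeks were 73.8 and 2.13 CPM for Cyp2f2 and 90.3 and 10.5 CPM for Rab15. For genes of the opposite pattern they were 20.9 and 134 CPM (Col1a1), 27.6 and 427 CPM (Sfrp5) and 60.1 and 247 CPM (Fabp5). In these 5 genes the CD median at 34 weeks was the one that stood apart from the earlier CD medians. The CD mice of 20 and 34 weeks overlapped in Col1a1, Sfrp5 and Cyp2f2.

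Several immune signalling genes were also highest in the CD mice of 20 weeks. The T cell ligand PD-L1, encoded by Cd274 (chr19:29362107-29388095), was 86.5, 125 and 171 CPM in CD and 40.0, 46.8 and 61.0 CPM in HFD mice at 20 weeks, and 10.1, 27.0 and 33.7 CPM in CD and 27.9, 40.6 and 53.1 CPM in HFD mice at 34 weeks. The diets did not overlap at 20 weeks, when HFD was lower (-1.29), and overlapped in part at 34 weeks, when HFD was higher (0.76, adjusted p = 0.0108). Its interaction was 2.05 ± 0.33 (SE, adjusted p = 0.00102). The chemokine Cxcl10, which attracts T cells, was 807, 1211 and 2100.0 CPM in CD and 146, 229.5 and 308 CPM in HFD at 20 weeks, and 24.3, 85.6 and 174 CPM and 40.0, 57.8 and 95.1 CPM at 34 weeks. It fell in both diets, with changes of -3.80 in CD and -1.93 in HFD (interaction 1.87, adjusted p = 0.0156), and the interferon-induced GTPase Gbp7 did as well, with changes of -2.63 and -1.07 (1.55, adjusted p = 0.0138). Each was the only member called of its list, 1 of 19 chemokines and receptors (median -0.06) and 1 of 22 interferon-stimulated genes (median -0.23), while Cxcl9 (1.64, adjusted p = 0.0977) and Gbp2 (1.43, adjusted p = 0.0702) were not called. Of 16 complement genes the terminal component C6 was higher (1.40, adjusted p = 0.0225), and of 13 acute phase genes Itih4. None of 7 MHC class II genes was called, and all 7 were higher in HFD at both times.

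The 250 bases before the start of each gene (RefSeq, GRCm38.p6, the same assembly as mm10) were searched on both strands for the letters TTCNNNGAA, the palindromic element of STAT factors, which transmit cytokine and interferon signals. A promoter window was held for 8354 of the 10433 genes tested. The letters were found for 25 of 253 such genes with a higher diet difference (9.88%), 14 of 325 with a lower one (4.31%), 6.95% of the genes tested and 7.02% of all 32841 windows, which is a description of letters and not of binding. An NF-kB element was found for 3.16%, 1.54% and 1.83% of the genes with a higher difference, a lower difference and tested, and the sterol element TCACNCCAC for 1.98%, 1.85% and 1.27%. Of 15 cholesterol genes with a window, 1 held the sterol letters, Hmgcs1. Windows with the STAT letters in capitals are shown for 2 genes named here whose diet difference was higher, Gbp7 and Itih4 from the immune lists, because they let the position of the letters be seen. Other genes named here with the letters were Rab15 and the lysosomal peptidase Ctsc, both higher, and Heg1, Mmp23 and Pcolce2, all lower. They are given 5′ to 3′ in the direction of the gene. The first base of the match lies 106 and 87 bases before the start of Gbp7 (plus strand, chr3:142530086-142530335) and 51 bases before that of Itih4 (plus strand, chr14:30886226-30886475).
Gbp7: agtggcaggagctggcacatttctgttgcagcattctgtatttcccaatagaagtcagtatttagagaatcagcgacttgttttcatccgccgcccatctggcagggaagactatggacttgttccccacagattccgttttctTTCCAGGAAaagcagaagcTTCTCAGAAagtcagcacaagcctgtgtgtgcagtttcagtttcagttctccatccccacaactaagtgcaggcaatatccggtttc
Itih4: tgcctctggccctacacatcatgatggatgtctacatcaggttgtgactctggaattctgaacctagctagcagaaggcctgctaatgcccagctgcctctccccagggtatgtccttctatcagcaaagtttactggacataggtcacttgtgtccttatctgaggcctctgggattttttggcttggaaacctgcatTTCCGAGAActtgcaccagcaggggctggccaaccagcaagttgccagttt

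Calls among glucose and insulin genes were split, with list medians of 0.24 for insulin signalling and glucose uptake and -0.27 for glycolysis. Of 19 genes of insulin signalling and glucose uptake, the adaptor Grb14 was lower (-1.39, adjusted p = 0.0409) and the glucose transporter GLUT1 gene Slc2a1 was higher. Slc2a1 was 96.4, 124 and 147 CPM in CD and 68.4, 83.6 and 109.8 CPM in HFD at 20 weeks, and 14.7, 22.7 and 35.7 CPM and 23.5, 39.8 and 54.6 CPM at 34 weeks. It fell in both diets, further in CD (-2.43) than in HFD (-1.19), so that HFD was lower at 20 weeks (-0.53) and higher at 34 weeks (0.71), with an interaction of 1.24 (adjusted p = 0.00712). Of 17 glycolytic genes, 14 had an interaction below 0. By call, the hexokinase Hk2 was higher (1.37, adjusted p = 0.0172) and the triosephosphate isomerase Tpi1 lower (-0.93, adjusted p = 0.0077). The NRF2 target Srxn1, which repairs oxidised peroxiredoxins, had the pattern of Slc2a1 (-0.61 and 0.85, interaction 1.46, adjusted p = 0.00437). Of 22 genes of branched-chain amino acid breakdown, Aldh6a1 (0.90, adjusted p = 0.0487) and Acadsb (0.76, adjusted p = 0.0495) were higher, close to the threshold and called in 16 and 12 of 39 other settings. Of the 22, 21 were lower in HFD at 20 weeks and 14 at 34 weeks.

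A few regulators were called. Among 19 adipocyte transcription factors, Stat5a, an effector of growth hormone and prolactin signals, was higher (0.94, adjusted p = 0.0166) and the co-regulator Tle3 lower (-0.71, adjusted p = 0.00867). Pparg, the master regulator of fat cells, had an interaction of -0.49 (adjusted p = 0.209) and none of the 13 adipocyte markers was called (median -0.01, and 0.06 with TMM scaling), although 9 of them were lower in HFD at each time. Of 22 immediate early genes, which respond within minutes to stimuli and to tissue handling, Fos (-1.45, adjusted p = 0.0122), Ier2 (-1.30, adjusted p = 0.00947) and Btg2 (-0.84, adjusted p = 0.0165) were lower. Fos rose in CD from 149, 242 and 399 CPM to 1185, 1598 and 2374 CPM and in HFD from 428, 750.1 and 978 CPM to 1056, 1700.1 and 2340.2 CPM, without overlap of the times in either diet. Whether handling differed between the harvests was not tested. Of 20 cytosolic heat shock chaperones, Cryab (-1.73, adjusted p = 0.0219), Stip1 (-0.45, adjusted p = 0.024) and Ahsa1 (-0.51, adjusted p = 0.0264), an activator of HSP90, were lower and Bag3 higher (0.73, adjusted p = 0.0176).

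The diet difference of a few RNA-processing genes was higher at 34 weeks. Of 32 SR proteins and hnRNPs, Hnrnpu (0.74, adjusted p = 0.00457), Srsf1 (0.68, adjusted p = 0.00569), Srsf7 (0.58, adjusted p = 0.047) and Hnrnpr (0.43, adjusted p = 0.0181) had a higher diet difference and none a lower one, with a median of 0.26. In CD 19 of the 32 fell with time and 2 rose, and in HFD 3 fell and 3 rose. Cpsf6 (chr10:117344667-117376998), a subunit of the cleavage factor that sets 3′ ends, was 57.3, 62.0 and 71.2 CPM in CD and 34.2, 36.4 and 41.4 CPM in HFD at 20 weeks without overlap, and 24.2, 30.5 and 48.2 CPM and 31.0, 40.4 and 46.4 CPM at 34 weeks with overlap. Its diet difference was called in opposite directions (-0.75 and 0.28, interaction 1.03, adjusted p = 0.000897).

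Of the 57 genes with opposite diet differences at the 2 times, Eva1b, Ltc4s and Cpsf6 had the smallest p. Eva1b (chr4:126145709-126149875), a membrane protein gene, was 3.83, 6.61 and 8.54 CPM in CD and 11.8, 14.4 and 20.7 CPM in HFD at 20 weeks, and 9.8, 13.2 and 16.9 CPM and 6.77, 7.07 and 12.1 CPM at 34 weeks. It rose in CD (0.97) and fell in HFD (-0.80), for an interaction of -1.77 ± 0.23 (SE, adjusted p = 0.000175). Ltc4s, the synthase of the leukotriene LTC4, rose in CD from 32.8-58.9 CPM to 100.2-178 CPM, which put CD above HFD at 34 weeks (-0.59, interaction -1.63, adjusted p = 0.000858). In 30 of the 57 genes HFD went from higher to lower, and in 27 from lower to higher. Of the 93 genes whose diet difference was called at 34 weeks only, 46 had a lower and 47 a higher difference than at 20 weeks, and for 41 and 33 of these the change was called in CD only. Scd1, Nid2, Btg2 and Mvk belong to the 41. Lamp2, a glycoprotein of the lysosomal membrane, and Hnrnpr belong to the 33, with Lamp2 falling in CD from 439, 472 and 549.9 CPM to 206, 278 and 444 CPM (0.71, adjusted p = 0.031). The replication helicase subunit Mcm7 rose in HFD only, from 21.6, 24.5 and 29.6 CPM to 24.3, 35.7 and 43.4 CPM (0.54, adjusted p = 0.0419). The calls of Lamp2 and Mcm7 were lost without single mice. Mcm7 was the only one called of 22 proliferation genes, of which 18 had an interaction below 0 (median -0.59). Of the 22, 18 rose in CD and 2 in HFD by call.

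A small set of 29 genes was called for a change in HFD and not in CD. Heg1 (chr16:33684384-33771576), a transmembrane receptor of vessel and cardiac development, was 200.2, 284 and 327 CPM in HFD mice at 20 weeks and 64.5, 98.9 and 129 CPM at 34 weeks, without overlap. The CD mice were at 73.0, 119.9 and 167 CPM and 71.8, 138 and 214 CPM, overlapping widely. The change was -1.47 in HFD (adjusted p = 0.000317) and 0.13 in CD (adjusted p = 0.631), with an interaction of -1.61 ± 0.33 (SE, adjusted p = 0.00622). Oaf (-1.32, adjusted p = 0.0017) and the membrane protein gene Tmem39a also fell in HFD, the latter by 0.71 on the log2 scale (adjusted p = 0.00117, interaction adjusted p = 0.00349). Oaf was 53.1, 72.3 and 102 CPM in HFD mice at 20 weeks and 33.4, 35.4 and 39.9 CPM at 34 weeks, without overlap.

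The HFD genes that rose were smaller in effect. Hmgn2, a nucleosome-binding protein, was 69.0, 76.9 and 81.1 CPM in CD and 44.8, 48.4 and 55.0 CPM in HFD at 20 weeks, and 60.1, 73.9 and 86.3 CPM and 66.9, 72.4 and 85.3 CPM at 34 weeks, so the HFD mice reached the CD level (0.61, adjusted p = 0.0033). Ccar2, a regulator of p53 and SIRT1 (0.47, adjusted p = 0.00944), and the ATPase gene Spata5 (0.53, adjusted p = 0.0258) were also called in HFD only, with changes of 0.41 and 0.57 in HFD.

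Few genes of energy metabolism were called. None of 36 complex I subunits was called (medians of the diet difference -0.37 and -0.44), and of 40 subunits of complexes II to V only Cox7a1 was (-1.31, adjusted p = 0.0113, at medians of 1.54 to 5.06 CPM). None of 80 cytosolic ribosomal proteins, 25 autophagy genes or 21 genes of adrenergic receptors and cAMP signalling was called, where the alpha1 receptor Adra1a (-0.93, adjusted p = 0.0692) and the adenylyl cyclase Adcy6 (-0.57, adjusted p = 0.084) had the smallest p. The beta3 receptor Adrb3 was lower in HFD at both times, with diet differences of -1.68 and -2.77 and an HFD change of -1.63, and its interaction was -1.09 (adjusted p = 0.129). Cfd, which encodes adipsin, had diet differences of -4.03 and -2.70, with an interaction of 1.32 (adjusted p = 0.121). A p that misses the threshold does not show that these differences were equal at both times. All told, 38 of the 53 lists had at least 1 member called, and 83 of the 1082 listed genes tested were called, a share near that of all genes.

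**Figure D5:**
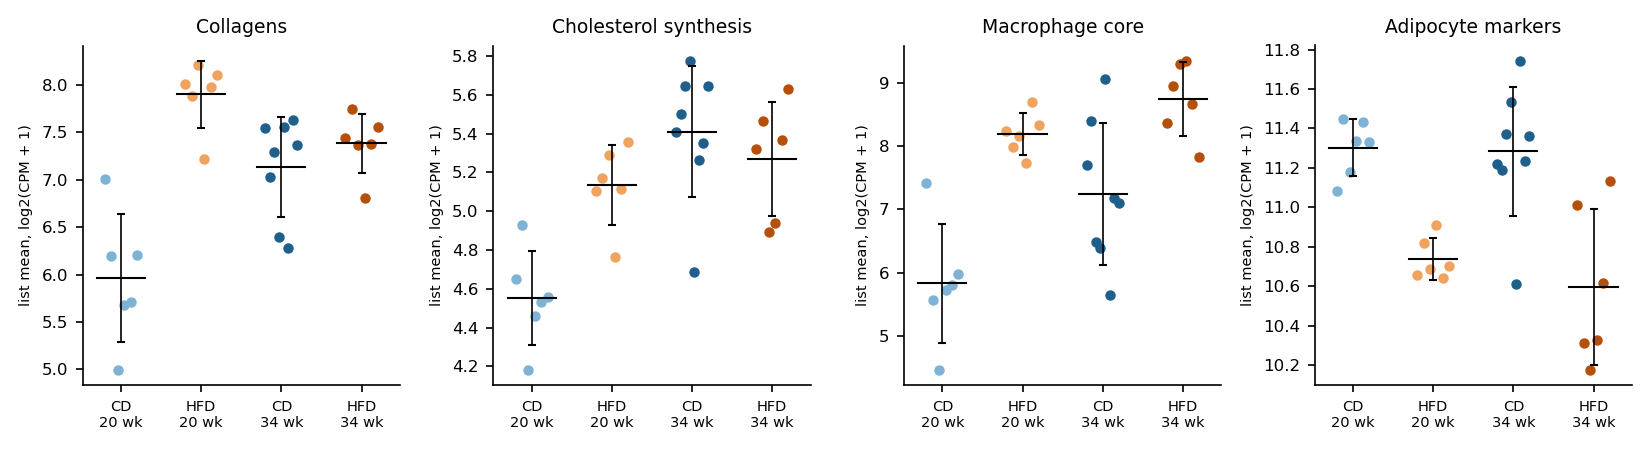
Mean of log2(CPM + 1) over the members tested of 4 gene lists in each mouse (points), with the group mean (bar) and SD (whiskers, n = 6, 6, 8 and 6). The collagens and cholesterol synthesis of CD mice are higher at 34 than at 20 weeks, the macrophage level of CD mice at 34 weeks is widely spread, and the adipocyte markers are lower in HFD at both times.

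The count of 713 depends on single mice. It ranged from 413 (without CD mouse 4 of 20 weeks) to 1127 (without CD mouse 1 of 20 weeks), and it was 432 and 425 without HFD mouse 3 or HFD mouse 6 of 20 weeks. Without CD mouse 6, CD mouse 5 or CD mouse 4 of 34 weeks it was 1028, 965 and 816, and without HFD mouse 4 of 20 weeks 889. The causes were not tested. The share of genes called in CD only was 72.8% to 81.4% over these 26 settings, against 76.0% with all mice. Of the 105 genes named in the text with a call, 67 kept it without any single mouse. How reads of near-identical copies were assigned is not given in the sources used here, so genes with close paralogs or pseudogenes (Hmgn2, Gbp2, Gbp7, Tuba1a, Acot2 and Acot4) are uncertain to that extent.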

How the data were processed

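Perigonadal adipocyte RNA of 26 male C57BL/6J mice was analysed, in groups of 6 (CD) and 6 (HFD) after 20 weeks and of 8 (CD) and 6 (HFD) after 34 weeks. According to the methods and labels, the authors aligned reads to mm10 with STAR (2.5.2b), summarised them per gene over its exons with featureCounts (Subread 1.5.1), dropped genes without an Entrez ID, merged 3 technical replicates of each mouse and deposited CPM. Normalization by TMM is named in the methods, but each deposited column sums to 1000000. The mice are the replicates. Whether counting used strand is not given in the sources used here.

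The CPM values are whole multiples of what 1 read is worth (0.0668 to 0.108 CPM), and reads were recovered for 100% of values within 0.1 reads, for 29132 genes and 9275711 to 14961360 reads per mouse (median 12378331). These intervals of 1 read cover counting error only. No pair of libraries within a group agreed within sampling noise (73 pairs, lowest chi-square per degree of freedom 11.5). Genes with a mean log2(CPM + 1) above 2 over the 26 mice (10433 genes) were fitted with limma 3.58.1 (R 4.3.3) with 1 mean per group, a mean-variance trend and 22 residual degrees of freedom. All tests were two-sided, with Benjamini-Hochberg adjustment over all genes tested and a threshold of 0.05. Log2 differences are on the log2(CPM + 1) scale and understate the change of low genes. On simulated counts with known changes the script was tested before use.

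In the alternatives, edgeR 4.0.16 (quasi-likelihood) called 820 and DESeq2 1.42.0 called 1286 genes on the recovered reads. Mice with the same number are not said to share a cage or day. Their deviations from the group means had a median correlation of -0.12 (-0.51 to 0.55) over 36 pairs of libraries, so the numbers were not taken as pairs.

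The comparison, the gene lists and the rules were chosen with earlier results of these data known. Named genes are called genes with a group mean of at least 10 CPM that are not predicted genes, namely the 8 largest interactions in each direction, the 3 with the smallest p in each class called in 1 diet only and among opposite diet differences, and the 3 smallest p of each of 53 lists, called or not. A few genes that these rules select are not reported here. Further list members were named where the whole list was given. List symbols that matched no entry were not analysed here. The 8-week mice entered no fit other than the alternative one of all 6 groups, and elsewhere their levels and diet differences were only described. Positions and promoter sequences are those of RefSeq for GRCm38.p6.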

Additional observations from a re-analysis of the deposited data

Results flagged for a closer look

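The diet difference itself differed between 20 and 34 weeks in 713 genes by the test of the interaction, which is the comparison reported above.

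Among 468 sets of values (117 genes named in the text in 4 groups), 26 held a mouse whose gap to its nearest neighbour exceeded Dixon's 95% critical value for the range of its group. Chance gives about 1 in 20 such sets, and the 26 fell on 11 mice. HFD mouse 4 of 20 weeks stood above its group in Ccar2 (30.3 CPM, others 21.6 to 24) and stood below its group in Scd2 (79.9 CPM, others 296 to 441), Nid2 (44.5 CPM, others 80.9 to 104), Tuba1a (211 CPM, others 524 to 714), Elovl6 (9.998 CPM, others 21.1 to 27.8) and Dhcr7 (11.4 CPM, others 18.2 to 22.7). CD mouse 1 of 20 weeks stood above its group in Gpr50 (1.47 CPM, others 0.0 to 0.147), Tmem39a (18.9 CPM, others 10.7 to 13.1) and Col14a1 (3.78 CPM, others 0.219 to 0.968) and stood below its group in Acsl1 (2263 CPM, others 3804 to 4631) and Nr3c1 (184 CPM, others 240.2 to 281). CD mouse 3 of 20 weeks stood above its group in Prg4 (332 CPM, others 136 to 159) and Dnajb9 (309 CPM, others 94.9 to 147) and stood below its group in Lep (38.2 CPM, others 330.4 to 674) and Npr3 (65.1 CPM, others 271 to 546). CD mouse 5 of 34 weeks stood below its group in Scd2 (144 CPM, others 768 to 1736), Nid2 (71.4 CPM, others 125 to 191) and Lss (24.2 CPM, others 53.9 to 98.4). HFD mouse 1 of 34 weeks stood above its group in Cxcl9 (177 CPM, others 34.6 to 60.1). HFD mouse 5 of 20 weeks stood above its group in Lamp2 (507 CPM, others 422 to 447) and stood below its group in Bmp3 (41.2 CPM, others 58 to 68.7). HFD mouse 5 of 34 weeks stood below its group in Itih4 (0.247 CPM, others 0.933 to 1.32). HFD mouse 3 of 34 weeks stood below its group in Tbx3 (4.47 CPM, others 6.99 to 8.59). CD mouse 5 of 20 weeks stood above its group in Ltbp2 (17 CPM, others 12 to 13.5). HFD mouse 6 of 34 weeks stood above its group in Scd1 (32064 CPM, others 11582 to 16344). CD mouse 4 of 20 weeks stood below its group in Adra1a (5.96 CPM, others 8.39 to 9.61).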

How the results depend on the processing

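All log2 values above depend on 1 fit, and 39 other settings were tried, 26 of which leave out 1 mouse. For the interaction (713 genes), fitting all 6 groups gave 1084, DESeq2 1286, the macrophage covariate 1151 and a requirement of at least 2-fold as well 265. With the 2-fold requirement the change in CD kept 1490 genes, the change in HFD 343, and the diet difference 1948 at 20 and 1070 at 34 weeks. The macrophage covariate gave 1406 and 389 genes for the diet difference at 20 and 34 weeks, and at 20 weeks this covariate did not overlap between the diets. Pseudocounts of 0.25 and 4 (711 and 712), no limit on low values (670), a mean above 4 (492), TMM (798), median-of-ratios scaling (833), group variance weights (876) and edgeR (820) stayed within 1.5 times. Leaving out 1 mouse gave 413 to 1127 for the interaction, 5687 to 6227 for the change in CD, 1522 to 2819 for the change in HFD (lowest without HFD mouse 4 of 34 weeks), and 5020 to 5743 and 2952 to 4793 for the diet difference at 20 and 34 weeks. The causes were not tested. The genes called in HFD only numbered 29, and 9 to 59 without 1 mouse.

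With the mouse number as a replicate block, the interaction called 539 genes. The numbers share no stated animal, litter or day, and 3 of 24 mice correlated best with their own number.

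No named gene reversed its direction under any setting. Of the 105 with a call, 38 lost it without at least 1 mouse, most often without CD mouse 4 (33 genes), HFD mouse 3 (32), HFD mouse 6 (29) or CD mouse 3 (28) of 20 weeks. Other settings took the call from 22 (no limit on low values), 23 (replicate block), 18 (edgeR), 12 (TMM), 10 (median-of-ratios scaling) and 39 (2-fold). The 12 named without a call were each called in at least 1 setting. The shallower libraries of 34 weeks limit low genes such as Gpr50 and Cox7a1.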

Other observations

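Clock and hormone genes had few calls. Of 17 circadian genes, the PAR-domain factor Hlf was higher (1.20, adjusted p = 0.0466), and in this list 9 fell and 2 rose in CD, with a median interaction of 0.31. The call of Hlf was lost with the macrophage covariate, with edgeR and with a replicate block, among other settings. Hlf was 6.55, 11.1 and 18.4 CPM in CD and 3.04, 3.29 and 4.48 CPM in HFD mice at 20 weeks, and 1.62, 3.47 and 9.4 CPM and 2.22, 2.86 and 3.94 CPM at 34 weeks. Of 16 genes of glucocorticoid activation and response, the glucocorticoid receptor Nr3c1 (0.58, adjusted p = 0.0432) and the sulfotransferase Sult1a1 (1.02, adjusted p = 0.0277) were higher. Among 15 adipokines, Nampt, which makes an NAD precursor, was higher (0.65, adjusted p = 0.0122), and chemerin, encoded by Rarres2, was lower (-1.22, adjusted p = 0.0258) beside Sfrp5 and Npr3.

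Lysosomal genes were called in both directions, while 36 of the 40 tested had an interaction below 0 (median -0.48, against -0.09 over all genes). Of 40 hydrolases and proton pump subunits, 34 rose in CD with time, the cholesterol carrier Npc2 (-0.88, adjusted p = 0.0397), the pump subunit Atp6v1e1 (-0.41, adjusted p = 0.0366) and Ctsd were lower, and Lamp2 and Ctsc were higher. Ctsc was 299.96 to 555 CPM in CD and 166, 184 and 226 CPM in HFD mice at 20 weeks, and 135, 221 and 501 CPM and 178, 236 and 321 CPM at 34 weeks (1.11, adjusted p = 0.034). In the cytoskeleton, the actin regulator Vasp (-1.28, adjusted p = 0.0281), the myosin light chain Myl12b (-0.42, adjusted p = 0.0488) and the tubulin Tuba1a (-2.57, adjusted p = 0.0314) were lower. These were 2 of 44 actin and focal adhesion genes and 1 of 10 tubulins, beside 6.83% of all genes tested. In the mitochondria and peroxisomes, the dehydrogenase subunit Idh3a (-0.67, adjusted p = 0.0224), the thiolase Acaa2 (-0.75, adjusted p = 0.0258) and the ribosomal protein Mrps6 (-0.90, adjusted p = 0.0463) were lower. The thioesterases Acot2 (0.86, adjusted p = 0.00865) and Acot4 (1.33, adjusted p = 0.00321) and the acyl-CoA synthetase Acsl1 (0.98, adjusted p = 0.0439) were higher. Idh3a was the only call among 22 TCA cycle genes, Mrps6 among 75 mitochondrial ribosomal proteins and Acot4 among 34 peroxisomal genes. Acaa2 and Acot2 were the calls among 19 fatty acid oxidation genes, and Acsl1 that among 13 of triglyceride synthesis. Mrps6, Idh3a, Atp6v1e1 and the myosin light chain Myl12b lost their calls with TMM scaling and with edgeR, and Npc2 lost its call with TMM scaling. Stress and growth genes called were the chaperone Dnajb9 (0.83, adjusted p = 0.0491), which was higher, and Gpx7 (-0.72, adjusted p = 0.0463), the p53 targets Ccng1 (-0.91, adjusted p = 0.0138) and Bbc3 (-0.99, adjusted p = 0.0318) and the proteasome subunit Psmc4 (-0.48, adjusted p = 0.0376), which were lower. Dnajb9 was 1 of 25 unfolded protein response genes, Ccng1 and Bbc3 2 of 19 arrest and p53 genes and Psmc4 1 of 41 proteasome genes. Gpx7 and Srxn1, which was higher, were the calls among 32 antioxidant genes. The call of Dnajb9 was lost with the macrophage covariate, with a replicate block and without CD mouse 3 of 20 weeks, among other settings. Those of Gpx7 and Psmc4 were lost with TMM scaling and with edgeR, as were those of Stip1, Ahsa1, Mvk, Scd1 and Acadsb given further above.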
